A study of Homo sapiens with 8 samples.

Results

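The genes described here encode 9 chains of basement membranes: the type IV collagen chains COL4A1, COL4A2, COL4A5 and COL4A6, the laminin alpha chains LAMA3 and LAMA5, the laminin beta chains LAMB1 and LAMB3, and the laminin gamma chain LAMC1. They are 9 of 58884 genes measured, found by symbol in each of 4 tables of expression. They were chosen on measured values of these same libraries, namely their levels in the control libraries and their ratios of treated over control in each line. Those levels and ratios are therefore given as a description, without a test, and nothing is inferred from the number of members that differ.

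The data are 8 RNA-seq libraries, made from 4 lines of human thyroid cancer. The anaplastic carcinoma lines 8505C and CAL-62 received an siRNA against NR1D1 or a control siRNA. TPC-1, from a papillary carcinoma, and FTC-133, from a follicular carcinoma, received an NR1D1 vector or an empty vector. Each of the 8 groups is 1 library, so no spread between replicates can be given within a line. Dose, time of harvest, siRNA sequence and whether a vector line is 1 clone are not stated in the sources used here. Levels are in TPM, transcripts per 1000000, which are per length and can be compared between genes. Log2 ratios are of TPM + 1, so they understate the change of low genes, and fold values are plain ratios of TPM. Intervals are 95%. Those of folds cover the counting error of the reads of a pair of libraries only. Those of a mean log2 ratio over the lines of an approach come from the limma model described below.

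Basement membranes are sheets of matrix under epithelia and around vessels and muscle. Laminins are trimers of an alpha, a beta and a gamma chain that bind cell surface integrins and polymerise first. Type IV collagen forms a second, covalently linked network, and nidogens and the proteoglycan perlecan join the networks. The chains COL4A1 and COL4A2 form the trimer found in nearly all basement membranes, while COL4A5 and COL4A6 form a trimer of more restricted places such as skin and smooth muscle. LAMA3 and LAMB3 belong to the anchoring laminin of stratified epithelia, and LAMA5, LAMB1 and LAMC1 make the broadly expressed epithelial laminin. Thyroid follicles are enclosed by such a sheet.

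The 4 collagen genes stand in pairs, head to head on opposite strands, so that each pair shares the region where transcription starts. COL4A1 (chromosome 13, 110148963 to 110307233, minus strand) and COL4A2 (chromosome 13, 110305812 to 110513209, plus strand) are annotated so in GENCODE 29 on GRCh38. Their RefSeq starts lie apart by 126 bases. COL4A6 (chromosome X, 108155607 to 108439497, minus strand) and COL4A5 (chromosome X, 108439844 to 108697545, plus strand) have outermost RefSeq starts with 379 bases between them. The sequences are shown because the COL4A1 and COL4A2 values went together in every library and those of the other pair did not outside 8505C. LAMA5 and LAMB3 are shown as the laminin members with the largest ratios after siRNA. They are RefSeq sequence of GRCh38.p14, 5′ to 3′ on the plus strand for the collagen genes and on the minus strand for the laminin genes. Capitals mark, on either strand, the CCAAT box (CCAAT), the GC box (GGGCGG) or the REV-ERB half-site core (AGGTCA).
COL4A1 and COL4A2, between their starts, chr13:110307158-110307283: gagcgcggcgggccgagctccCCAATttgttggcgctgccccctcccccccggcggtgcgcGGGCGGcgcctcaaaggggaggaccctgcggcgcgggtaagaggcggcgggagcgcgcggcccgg
COL4A5, the 250 bases before its start, chrX:108439588-108439837: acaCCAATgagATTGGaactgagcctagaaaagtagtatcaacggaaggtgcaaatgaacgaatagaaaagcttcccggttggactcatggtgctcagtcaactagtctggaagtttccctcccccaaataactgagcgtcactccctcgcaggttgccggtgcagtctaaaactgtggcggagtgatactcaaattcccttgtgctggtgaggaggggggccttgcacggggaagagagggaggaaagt
LAMA5, the 250 bases before its start, chr20:62367313-62367562: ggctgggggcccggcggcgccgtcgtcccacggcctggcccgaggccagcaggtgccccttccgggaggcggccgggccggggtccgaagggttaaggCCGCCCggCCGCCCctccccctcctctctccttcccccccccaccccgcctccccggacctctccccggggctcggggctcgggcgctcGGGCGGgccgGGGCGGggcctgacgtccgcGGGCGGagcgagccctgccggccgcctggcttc
LAMB3, the 250 bases before its outermost start, chr1:209652426-209652675: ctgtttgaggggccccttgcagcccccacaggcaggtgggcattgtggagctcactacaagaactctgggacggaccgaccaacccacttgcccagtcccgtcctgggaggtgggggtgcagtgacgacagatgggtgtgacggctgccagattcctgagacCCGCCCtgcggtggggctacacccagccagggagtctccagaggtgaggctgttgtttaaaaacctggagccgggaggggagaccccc

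The stretch between the COL4A1 and COL4A2 starts was 80.2% G or C and held 1 CCAAT and 1 GGGCGG. The stretch before COL4A5 was 51.2% G or C with 2 matches to CCAAT and none to GGGCGG, and that before LAMA5 was 82.8% G or C with 5 matches to GGGCGG. Over windows of 250 bases before to 50 bases after each start, all 9 members had an entry, in 12 windows. AGGTCA, the core half-site that the REV-ERB and ROR receptors bind, was in none of the 12 windows and in 13.8% of 35116 windows of the same length. CCAAT was in at least 1 window of 5 of the 9 members, and GGGCGG in at least 1 window of 8. Of all single windows, 34.6% held CCAAT and 45.0% held GGGCGG. These shares are not a like measure, since a member with several windows has more than 1 chance of a match. LAMB3, for example, held CCAAT in only 1 of its windows. The windows of COL4A1 and COL4A2 overlap each other. The motifs do not overlap in the printed stretches, and a match or its absence is a description of these windows only.

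NR1D1, the targeted gene, encodes the nuclear receptor REV-ERB alpha, a repressor of the circadian clock. It was at 11.2 TPM after NR1D1 siRNA and 18.2 TPM after control siRNA in 8505C, a fold of 0.616 (0.499 to 0.759). In CAL-62 it was at 10.1 TPM after NR1D1 siRNA and 22.0 TPM after control siRNA, a fold of 0.462 (0.383 to 0.553). With the NR1D1 vector it was at 209 TPM, against 190.0 TPM with the empty vector, in TPC-1, and at 137 TPM against 105 TPM in FTC-133. The labelled direction was thus seen in each line, with a difference of only 1.10-fold (1.05 to 1.15) in TPC-1 and 1.30-fold (1.21 to 1.40) in FTC-133. As log2 ratios these were 0.135 in TPC-1 and 0.374 in FTC-133. Both lay between the lower and upper quartiles of all genes, -0.344 to 0.316 in TPC-1 and -0.331 to 0.454 in FTC-133. The vector lines thus did not set NR1D1 apart from the ordinary spread of genes, which the counting intervals do not cover.

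Recovered read totals, in units of 1000000 reads, ran from 12.86 to 23.18 per library. Genes of the mitochondrial genome took 67.8% of TPM after NR1D1 siRNA and 57.2% after control siRNA in CAL-62, and between 15.7% and 29.3% in the other libraries. The median gene had a log2 ratio of -0.28 in CAL-62 of 0.05 in 8505C and FTC-133 and of -0.02 in TPC-1, so CAL-62 ratios are also given relative to that median. The thyroid hormone genes TG and SLC5A5 were below 1 TPM in every library, and PAX8, a thyroid transcription factor, was at 0.50 TPM in both 8505C libraries and at 53.7 TPM or more elsewhere. NKX2-1, another thyroid transcription factor, was at 100.3 TPM after NR1D1 siRNA and 63.4 TPM after control siRNA in 8505C, at 22.0 TPM with the NR1D1 vector and 14.2 TPM with the empty vector in FTC-133, and at 0 in CAL-62 and TPC-1. Immune markers summed to at most 0.540 TPM in any library. Among endothelial markers, CDH5 was at 140 TPM after NR1D1 siRNA and 46.8 TPM after control siRNA in 8505C and at 0.17 TPM or less in the other lines.

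COL4A1, the alpha 1 chain of the common type IV network, was at 48.5 TPM after NR1D1 siRNA and 36.6 TPM after control siRNA in 8505C. In CAL-62 it was at 93.0 TPM after NR1D1 siRNA and 50.1 TPM after control siRNA. TPC-1 had 41.3 TPM with the NR1D1 vector and 24.8 TPM with the empty vector, and FTC-133 had 315 TPM with the NR1D1 vector and 13.1 TPM with the empty vector. The treated library was the higher in each line, and FTC-133 with the empty vector was the lowest of all 8 libraries while FTC-133 with the NR1D1 vector was the highest. In bulk RNA, more cells expressing a gene and more RNA per cell cannot be told apart. The FTC-133 fold was 24.1 (22.5 to 25.9), beside 1.32 (1.26 to 1.40) in 8505C, 1.86 (1.79 to 1.92) in CAL-62 and 1.66 (1.58 to 1.76) in TPC-1. In FTC-133 this rested on 19138 reads with the NR1D1 vector and 834 with the empty vector. By level, COL4A1 was gene 414 in FTC-133 with the NR1D1 vector and gene 7257 with the empty vector.

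COL4A2, which joins COL4A1 in the same trimer, followed it. It was at 72.1 TPM after NR1D1 siRNA and 48.0 TPM after control siRNA in 8505C, and at 122 TPM and 69.5 TPM, in the same order, in CAL-62. TPC-1 had 50.8 TPM with the NR1D1 vector, against 36.8 TPM with the empty vector, and FTC-133 had 263 TPM, against 19.2 TPM with the empty vector. The fold was 13.7 (13.0 to 14.4) in FTC-133 and between 1.38 and 1.75 in the other lines. The pair had a Pearson r of 0.991 on log2(TPM + 1) over the 8 libraries, which share 4 lines, and FTC-133 supplies both ends of that range. The proportions of the pair were less even than this r. COL4A1 over COL4A2 was 1.20 in FTC-133 with the NR1D1 vector and between 0.672 and 0.814 in the other 7 libraries, FTC-133 with the empty vector included at 0.679. The annotated gene bodies overlap by 1422 bases but their exons by 0 bases, so reads of the pair were kept apart by exon whatever the strand setting of counting, which was not given in the sources used here.

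**Figure D1:**
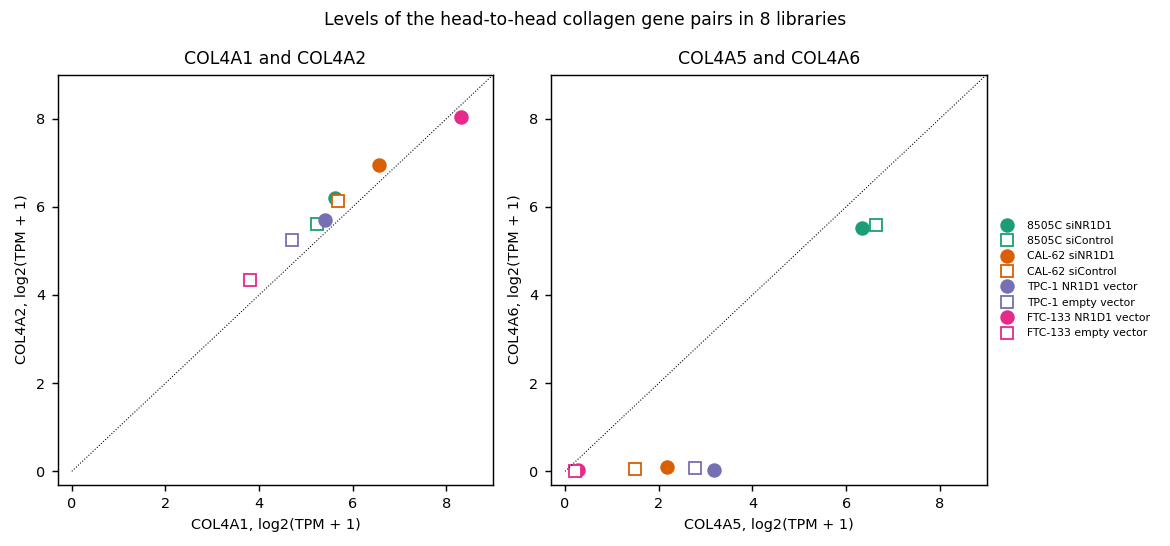
Levels of COL4A1 against COL4A2 (left) and of COL4A5 against COL4A6 (right), both axes in log2(TPM + 1), 1 point per library, filled for NR1D1 siRNA or NR1D1 vector and open for control siRNA or empty vector; the dotted line marks equal levels. The left pair runs along the line from 13.1 TPM of COL4A1 in FTC-133 with the empty vector to 315 TPM with the NR1D1 vector, whereas in the right pair only the 8505C libraries lie away from the axis of COL4A5.

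COL4A5, the chain altered in X-linked Alport syndrome, was highest in 8505C, at 80.1 TPM after NR1D1 siRNA and 99.0 TPM after control siRNA. It was at 3.54 TPM after NR1D1 siRNA and 1.80 TPM after control siRNA in CAL-62. TPC-1 had 8.02 TPM with the NR1D1 vector, against 5.88 TPM with the empty vector, and FTC-133 had 0.205 TPM, against 0.156 TPM with the empty vector. The level thus set 8505C far apart from the other lines, in tables that the authors made separately. The fold after siRNA was 0.809 (0.777 to 0.841) in 8505C and 1.98 (1.61 to 2.43) in CAL-62, on opposite sides of 1. In FTC-133 it rested on 10 and 8 reads, and no difference was detectable at that depth.

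COL4A6, the partner of COL4A5, was at 45.1 TPM after NR1D1 siRNA and 47.4 TPM after control siRNA in 8505C, a fold of 0.95 (0.893 to 1.01). The interval includes 1, so the 8505C libraries did not differ beyond counting error. In the other 3 lines it had between 0 and 4 reads per library, at most 0.0737 TPM, and no fold is given there. COL4A5 over COL4A6 was 1.78 after NR1D1 siRNA and 2.09 after control siRNA in 8505C. TPC-1 held 559 reads of COL4A5 with the NR1D1 vector and 409 with the empty vector, beside 1 and 3 reads of COL4A6, so the genes of this head-to-head pair were not at like levels there.

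LAMA3, the alpha chain of the anchoring laminin, was at 22.7 TPM after NR1D1 siRNA and 20.1 TPM after control siRNA in 8505C. CAL-62 had 51.4 TPM after NR1D1 siRNA and 26.6 TPM after control siRNA. TPC-1 had 11.7 TPM with the NR1D1 vector and 8.45 TPM with the empty vector, and FTC-133 had 9.73 TPM and 3.67 TPM. The treated library was the higher in each line, with folds of 1.13 (1.05 to 1.21) in 8505C, 1.93 (1.84 to 2.02) in CAL-62, 1.38 (1.26 to 1.52) in TPC-1 and 2.65 (2.28 to 3.10) in FTC-133. The control levels ran over 7.26-fold, from FTC-133 at the low end to CAL-62. The CAL-62 level is lowered by the large mitochondrial share of that library, and the span was not computed without mitochondrial genes.

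LAMA5, the alpha chain of the broadly expressed epithelial laminin, was at 255 TPM after NR1D1 siRNA and 91.8 TPM after control siRNA in 8505C. In CAL-62 it was at 57.6 TPM after NR1D1 siRNA and 20.3 TPM after control siRNA. These pairs had almost the same fold, 2.78 (2.70 to 2.86) in 8505C and 2.85 (2.70 to 2.997) in CAL-62, although their levels differed. With the NR1D1 vector LAMA5 was at 33.3 TPM in TPC-1, against 25.9 TPM with the empty vector, and at 10.1 TPM in FTC-133, against 6.64 TPM with the empty vector. Those folds were 1.29 (1.22 to 1.36) and 1.52 (1.34 to 1.73), again above 1. Exons of LAMA5 overlap exons of ADRM1 on the other strand by 244 bases, 1.7% of its exon length.

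LAMB1, a beta chain of most laminins, was at 417 TPM after NR1D1 siRNA and 248 TPM after control siRNA in 8505C, and at 223 TPM and 151 TPM, in the same order, in CAL-62. TPC-1 had 120 TPM with the NR1D1 vector and 74.1 TPM with the empty vector, and FTC-133 had 578 TPM with the NR1D1 vector and 640.3 TPM with the empty vector. FTC-133 was the line with the highest level and the only line whose treated library was the lower. Folds were 1.68 (1.64 to 1.72) in 8505C, 1.48 (1.44 to 1.52) in CAL-62, 1.62 (1.55 to 1.69) in TPC-1 and 0.902 (0.885 to 0.920) in FTC-133. Exons of LAMB1 overlap those of an antisense gene by 221 bases, 2.7% of its exon length, and that gene reached 25.2 TPM.

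LAMB3, the beta chain of the anchoring laminin, had the widest range of control levels among members with a mean of at least 1 TPM in every line. TPC-1 had 1439 TPM with the NR1D1 vector and 2374 TPM with the empty vector, where it was gene 34 by level. FTC-133 had 25.2 TPM with the NR1D1 vector and 41.6 TPM with the empty vector. In 8505C it was at 65.0 TPM after NR1D1 siRNA and 19.7 TPM after control siRNA, and in CAL-62 at 166 TPM after NR1D1 siRNA and 68.5 TPM after control siRNA. LAMB3 was thus higher after NR1D1 siRNA in both siRNA lines and lower with the NR1D1 vector in both vector lines, the only member with that arrangement. It was not particular to LAMB3. The laminin receptor gene ITGA6 had log2 ratios of 0.907 in 8505C, 0.452 in CAL-62, -0.438 in TPC-1 and -1.055 in FTC-133. P4HB, a gene of collagen processing, had the same sides with smaller ratios in each vector line. The share of all genes with this arrangement was not computed. The folds were 3.30 (2.96 to 3.70) in 8505C and 2.43 (2.31 to 2.56) in CAL-62, and 0.606 (0.599 to 0.614) in TPC-1 and 0.607 (0.542 to 0.679) in FTC-133. siRNA and vector were used in different lines, so an effect of the approach and of the lines cannot be told apart.

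LAMC1, the gamma chain of most laminins, was the most evenly expressed laminin member. It was at 549 TPM after NR1D1 siRNA and 344 TPM after control siRNA in 8505C, and at 208 TPM and 103 TPM, in the same order, in CAL-62. TPC-1 had 381 TPM with the NR1D1 vector and 407 TPM with the empty vector, and FTC-133 had 536 TPM with the NR1D1 vector and 386 TPM with the empty vector. It was higher in the treated library in 3 of the 4 lines, with folds of 1.60 (1.56 to 1.63) in 8505C, 2.02 (1.95 to 2.08) in CAL-62 and 1.39 (1.36 to 1.42) in FTC-133. In TPC-1 the fold was 0.938 (0.920 to 0.957). Its control levels spanned 3.93-fold, against 121-fold for LAMB3. The low end for LAMC1 was CAL-62, where mitochondrial genes took 57.2% of TPM after control siRNA, which lowers the TPM of all other genes. These spans were not computed without mitochondrial genes.

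**Figure D2:**
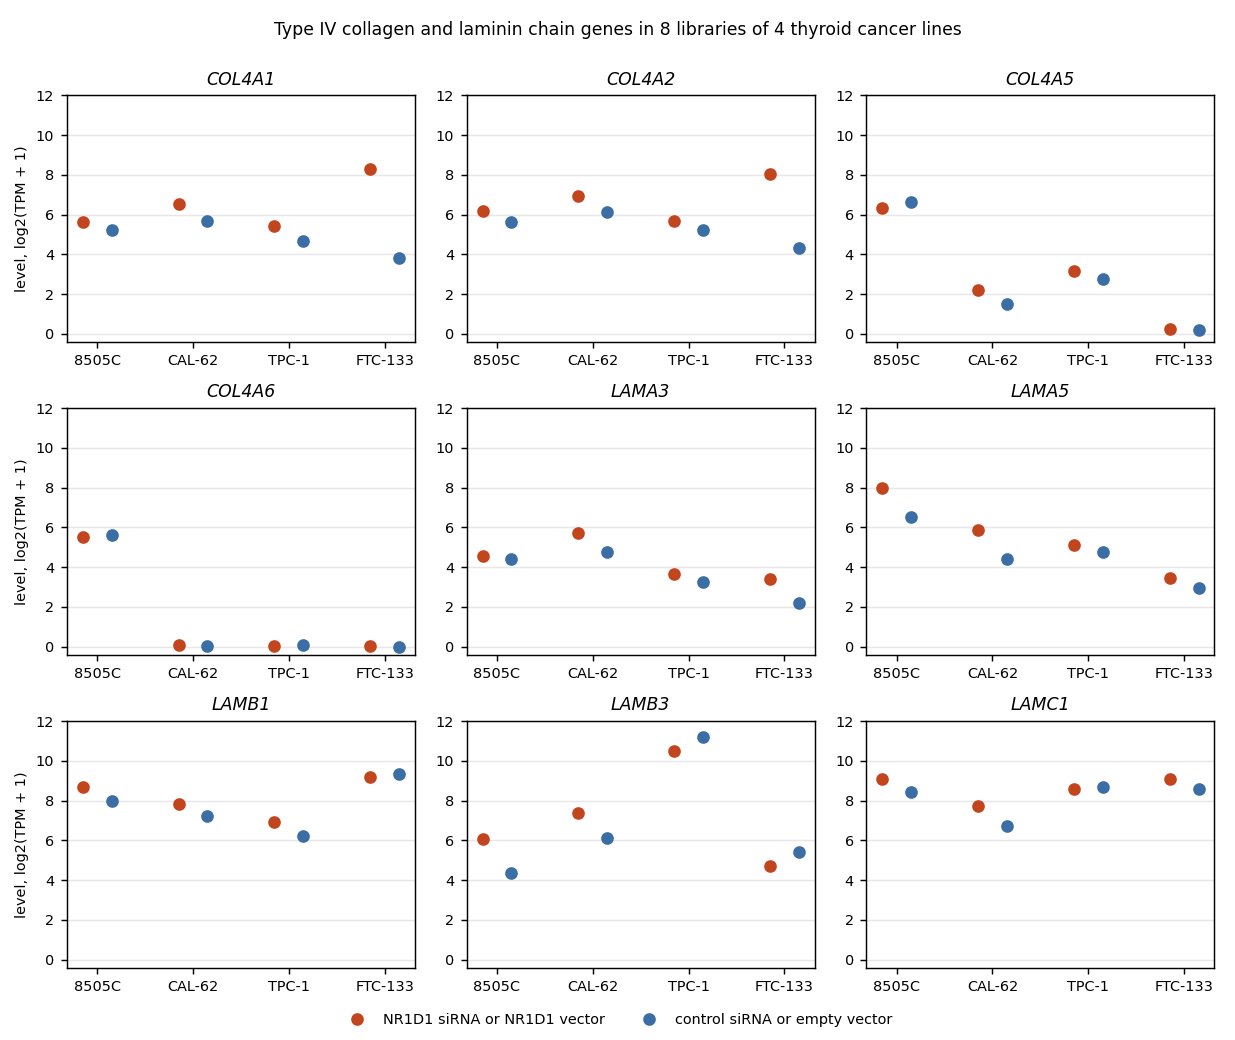
Level of each of the 9 genes in log2(TPM + 1) on the vertical axis, by cell line, 1 point per library, with NR1D1 siRNA or NR1D1 vector at the left of each line and control siRNA or empty vector at its right. COL4A1 and COL4A2 stand out in FTC-133 with the NR1D1 vector at 315 and 263 TPM, LAMB3 in TPC-1 at 1439 and 2374 TPM, and COL4A5 and COL4A6 in 8505C.

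Set side by side, 2 of the 9 members were at least 2-fold higher after NR1D1 siRNA in 8505C, LAMA5 and LAMB3, where 11.9% of 16499 genes with a mean of at least 1 TPM were. In CAL-62 there were 3, LAMA5, LAMB3 and LAMC1, where 5.3% of 16230 genes were. With the NR1D1 vector there was no member at 2-fold in TPC-1, where 6.28% of 16175 genes were higher, and there were 3 in FTC-133, COL4A1, COL4A2 and LAMA3, where 9.76% of 16501 genes were higher. No member was 2-fold lower in any line, beside 5.86% of genes in 8505C, 10.7% in CAL-62, 5.25% in TPC-1 and 6.91% in FTC-133. The mean of 1 TPM was met by 9 members in 8505C, 8 in CAL-62, 8 in TPC-1 and 7 in FTC-133, the others being COL4A6 and, in FTC-133, COL4A5. Nearest to the 2-fold line were LAMC1 in CAL-62 just inside it, at a log2 ratio of 1.004, and LAMA3 in CAL-62 just outside it, at 0.92. Because the members were picked on these ratios, nothing is read from these counts.

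The ratios in CAL-62 sat against a median gene of -0.28. Relative to that median the CAL-62 log2 ratios were 1.16 for COL4A1, 1.08 for COL4A2, 0.98 for COL4A5, 1.20 for LAMA3, 1.74 for LAMA5, 0.84 for LAMB1, 1.55 for LAMB3 and 1.28 for LAMC1. By that measure 6 members passed 2-fold in CAL-62, where 8.75% of 16230 genes did. With mitochondrial genes left out of the total 7 did, COL4A5 among them at a log2 ratio of 1.21, where 12.3% of 16193 genes did. Beside the 8505C values, 2 of 6 endothelial markers reached 1 TPM in both libraries, and the list summed to 146 TPM after NR1D1 siRNA and 49.7 TPM after control siRNA. Beside the FTC-133 values, fibroblast and pericyte markers summed to 212 TPM with the NR1D1 vector and 97.7 TPM with the empty vector, with 3 and 5 of 6 at 1 TPM or more, and PDGFRA was at 0 in both. Most of that sum was ACTA2 and LUM. ACTA2 was at 127 TPM with the NR1D1 vector and 60.0 TPM with the empty vector, and LUM at 65.7 TPM and 26.8 TPM. PDGFRB was also higher with the NR1D1 vector, at 18.1 TPM and 4.56 TPM. DCN, at 0.987 TPM and 4.42 TPM, and RGS5, at 0.880 TPM and 1.95 TPM, were lower with the NR1D1 vector. Epithelial markers there summed to 179 TPM with the NR1D1 vector and 64.5 TPM with the empty vector. In each, 3 of 5 were at 1 TPM or more, but not the same genes. KRT8, at 89.3 TPM and 14.0 TPM, and KRT18, at 79.9 TPM and 48.2 TPM, made up most of that sum. KRT19 was at 8.53 TPM with the NR1D1 vector and 0.791 TPM with the empty vector, while EPCAM was lower, at 0.964 TPM and 1.47 TPM. The part of these differences in the results was not tested.

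**Figure D3:**
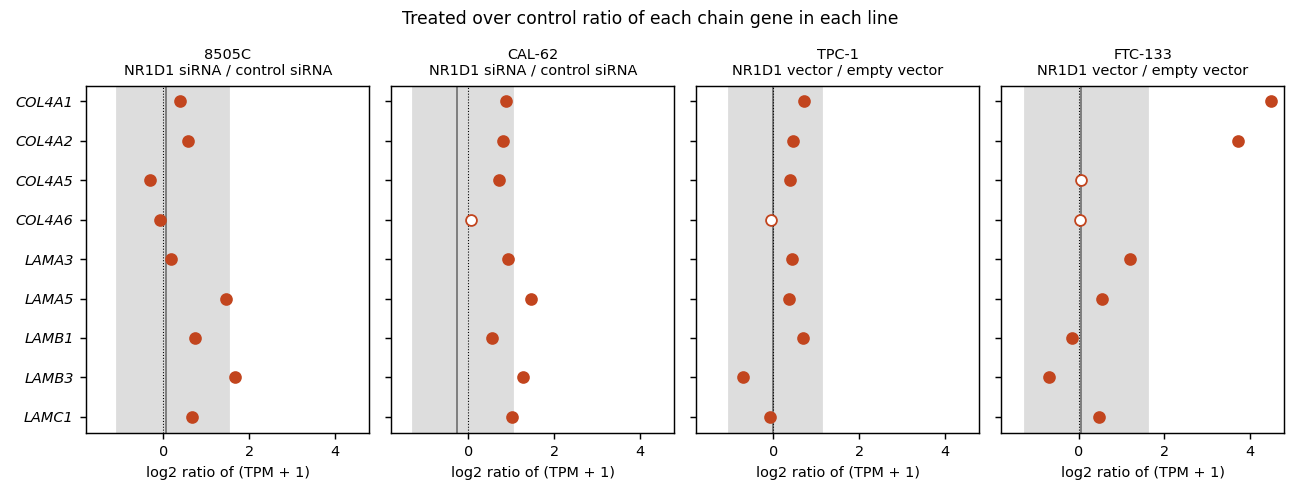
Log2 ratio of (TPM + 1), NR1D1 siRNA over control siRNA or NR1D1 vector over empty vector, of each of the 9 genes in each line; the grey band spans the central 90% of all genes with a mean of at least 1 TPM in that line, the solid grey line is their median, and open points mark genes under that mean. COL4A1 and COL4A2 in FTC-133, at 4.49 and 3.71, lie far to the right of the band, and LAMB3 lies right of 0 in 8505C and CAL-62 and left of 0 in TPC-1 and FTC-133.

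The chains differed in their share of each family across lines. Among laminin beta chains, LAMB3 held 86.5% of summed TPM in TPC-1 with the NR1D1 vector and 93.7% with the empty vector, while LAMB1 held 76.9% and 82.6% in FTC-133 in the same order. In CAL-62 LAMB3 held 35.6% after NR1D1 siRNA and 25.3% after control siRNA, and in 8505C 10.1% and 5.66%. Its alpha partner in the anchoring laminin was not in proportion, since in TPC-1 LAMA3 over LAMB3 was 0.00812 with the NR1D1 vector and 0.00356 with the empty vector.

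Among laminin alpha chains, LAMA5 held 57.8% of summed TPM after NR1D1 siRNA and 38.6% after control siRNA in 8505C, and 33.0% and 18.9% in CAL-62. The largest other share in both lines was that of LAMA4, a chain of vascular and mesenchymal laminins, at 34.4% and 50.7% in 8505C and 36.7% and 55.3% in CAL-62. TPC-1 had almost no LAMA4, at 0.0305 TPM with the NR1D1 vector and 0.122 TPM with the empty vector, and LAMA5 held 71.9% and 71.4% there. In FTC-133 LAMA4 held 81.8% with the NR1D1 vector and 92.3% with the empty vector. Among collagen chains, COL4A5 and COL4A6 held 32.4% and 18.2% after NR1D1 siRNA and 42.3% and 20.2% after control siRNA in 8505C. In the other lines COL4A1 and COL4A2 held nearly all of the sum, and COL4A5 at most 8.66%, in TPC-1 with the empty vector.

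**Figure D4:**
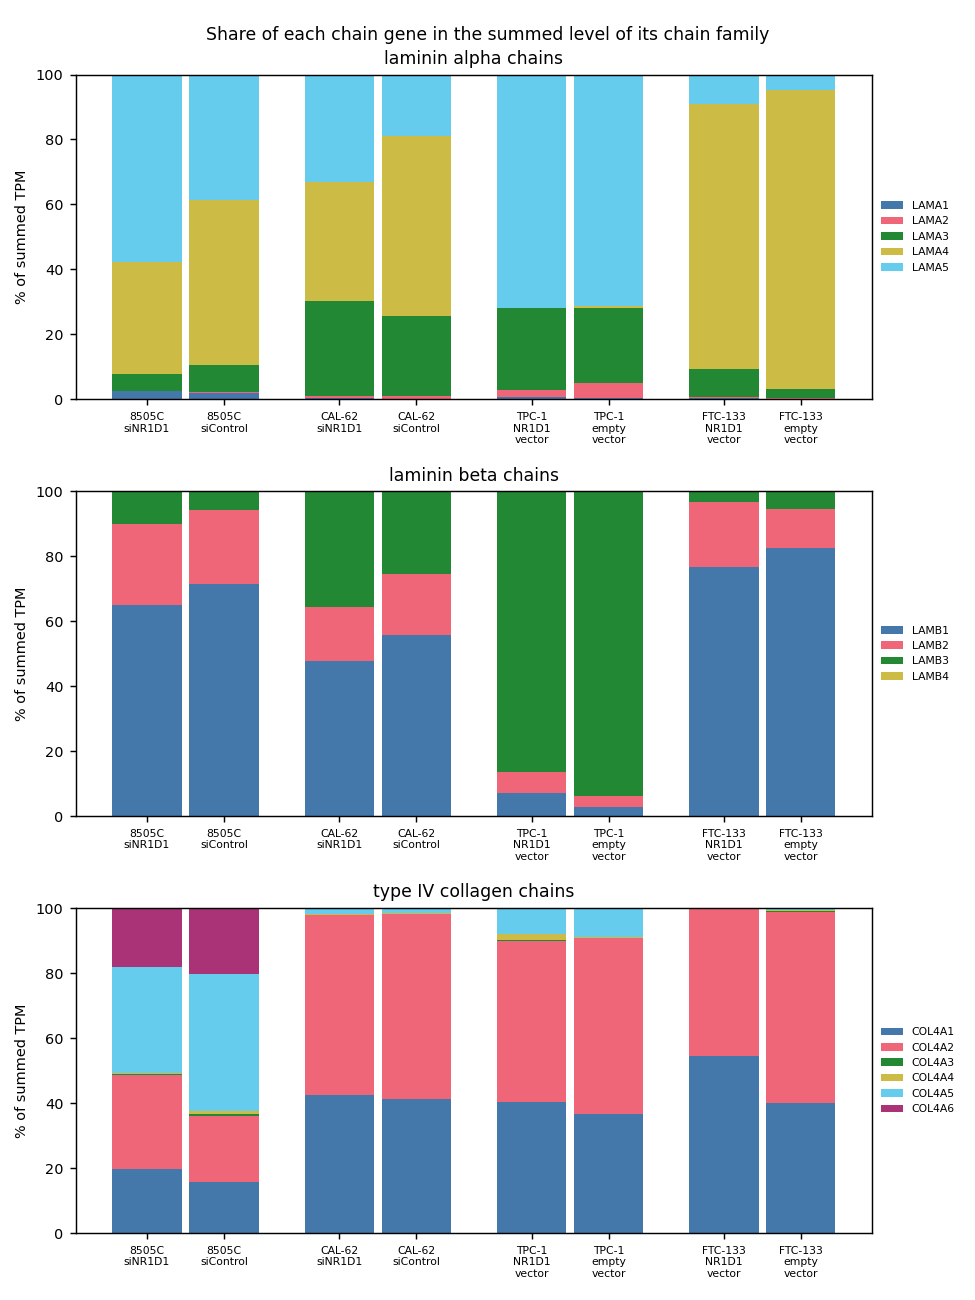
Percent of summed TPM held by each gene within the laminin alpha chains, the laminin beta chains and the type IV collagen chains, 1 stacked bar per library, with NR1D1 siRNA or NR1D1 vector left of its control in each line. LAMB3 fills most of the beta bar in TPC-1 only, LAMA4 most of the alpha bar in FTC-133, and COL4A5 with COL4A6 a large part of the collagen bar in 8505C only.

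Genes with the most similar pattern over the 8 libraries were taken by Pearson correlation of log2(TPM + 1) among 10046 other protein-coding genes with a mean of at least 5 TPM. For COL4A1 they were GARRE1 (r = 0.879), RABL2B (0.877), AEBP1 (0.869), FBXO44 (0.846) and FBLN2 (0.830), all below the 0.991 of COL4A2. For LAMB3 they were BAIAP2L2 (0.986), PHC3 (0.982), PCID2 (0.968), SGK2 (0.964) and CAMK1 (0.960). For LAMC1 they were ATP6AP1 (0.994), LOXL2 (0.982), PFKFB4 (0.981), PLPP1 (0.975) and MAN1B1 (0.969). The 8 libraries are 4 pairs from shared lines, and the values are given only as likeness.

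Beyond the members, a list of 48 other basement membrane genes was followed, made of further chains, linkers, assembly enzymes, receptors and proteases. In 8505C 12 of its 37 genes with a mean of at least 1 TPM were 2-fold higher after NR1D1 siRNA, beside 11.9% of all such genes. None was 2-fold lower, beside 5.86%, and the median log2 ratio was 0.76 against 0.05 for all genes. In CAL-62 16 of 37 were 2-fold higher, beside 5.3% of all genes, and none lower, beside 10.7%, with a median of 0.90 against -0.28. In TPC-1 5 of 37 were higher with the NR1D1 vector, beside 6.28% of all genes, and 1 lower, beside 5.25%. The 5 include COL4A4, at 1.98 TPM with the NR1D1 vector and 0.271 TPM with the empty vector, on 117 and 16 reads. It met the mean of 1 TPM only through the library in which it was high. The median there was 0.35 against -0.02. In FTC-133 4 of 36 were higher, 11.1% of the list and close to the 9.76% of all genes, and 4 lower, beside 6.91%. The median there was 0.14 against 0.05. A model over all lines asked whether the mean siRNA effect over 8505C and CAL-62 differed from 0. It asked the same of the mean vector effect over TPC-1 and FTC-133. For siRNA, 0 of 40 list genes tested passed limma with Benjamini-Hochberg adjustment over all genes, as did 0% of 17595 genes, and 15 of the 40, all higher, had an unadjusted p under 0.05, where 12% of all genes did. For the vector, 0 of 40 passed, as did 0% of all genes, and 5 of the 40, 4 higher and 1 lower, had an unadjusted p under 0.05, where 4.46% did. The siRNA share of all genes split into 791 higher and 1323 lower, which turned to 1424 and 1142 with ratios centred on the median gene and to 1792 and 1112 without mitochondrial genes.

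The linkers stood on the same side as most members after siRNA. HSPG2, which encodes perlecan, was at 13.6 TPM after NR1D1 siRNA and 4.72 TPM after control siRNA in 8505C, and at 16.9 TPM and 6.26 TPM in CAL-62. Its mean log2 ratio over both lines was 1.33 (95% interval 0.63 to 2.02, limma adjusted p = 0.261). NID1, the main nidogen, was at 90.5 TPM after NR1D1 siRNA and 52.9 TPM after control siRNA in 8505C and at 47.5 TPM and 24.0 TPM in CAL-62. NID2 had log2 ratios of 1.41 and 0.62 in these lines, and of 1.36 and 0.76 in TPC-1 and FTC-133. The proteoglycan gene AGRN, for agrin, had log2 ratios of 0.78 in 8505C and 0.50 in CAL-62 after siRNA, and of 0.38 in TPC-1 and 0.07 in FTC-133 with the vector. COL18A1, a collagen of the basement membrane zone, had 8.64 TPM with the NR1D1 vector and 1.63 TPM with the empty vector in FTC-133, and 62.9 TPM against 38.4 TPM in TPC-1, with a mean log2 ratio of 1.29 for the vector (limma adjusted p = 0.869).

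Among other laminin chains, LAMB2 kept to the same side across lines and LAMA4 did not. LAMB2, the beta chain of synaptic and vascular laminins, had log2 ratios above 0 in each line, of 0.99 in 8505C, 0.31 in TPC-1, 0.60 in CAL-62 and 0.67 in FTC-133. LAMA4 had log2 ratios of 0.33 in 8505C and 0.11 in CAL-62, and of -0.50 in FTC-133.

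Assembly enzymes and proteases differed in several lines. LOXL2, a lysyl oxidase that cross-links type IV collagen, was at 158 TPM after NR1D1 siRNA and 32.2 TPM after control siRNA in CAL-62 and at 763 TPM and 332 TPM in 8505C, with a mean log2 ratio of 1.73 (0.92 to 2.54, limma adjusted p = 0.246). PXDN, the peroxidase that forms sulfilimine bonds in type IV collagen, was at 316 TPM after NR1D1 siRNA and 80.1 TPM after control siRNA in CAL-62. It was also at 182 TPM with the NR1D1 vector in FTC-133, against 86.0 TPM with the empty vector. P4HA2, a collagen prolyl hydroxylase, had a log2 ratio of 1.67 in CAL-62. The matrix chaperone gene SERPINH1 was at 43.9 TPM with the NR1D1 vector and 19.9 TPM with the empty vector in TPC-1. After siRNA SERPINH1 was lower, at log2 ratios of -0.557 in 8505C and -0.369 in CAL-62, the latter -0.091 relative to the median gene. In FTC-133 it was at 0.26. PLOD1, a lysyl hydroxylase, had a log2 ratio of 1.03 in FTC-133. MMP2, a gelatinase that cleaves type IV collagen, was at 83.8 TPM after NR1D1 siRNA and 28.9 TPM after control siRNA in 8505C, and at 10.8 TPM and 1.83 TPM in CAL-62. With the NR1D1 vector MMP2 was at 108 TPM in TPC-1, against 31.3 TPM, but at 393 TPM in FTC-133, against 2193 TPM with the empty vector. ADAMTS1, a secreted protease, was at 56.1 TPM after NR1D1 siRNA and 7.55 TPM after control siRNA in 8505C and at 335 TPM with the NR1D1 vector, against 729 TPM, in FTC-133. MMP14, a membrane protease, had log2 ratios of 1.27 in 8505C and 1.42 in CAL-62.

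Among other components and receptors, SPARC, which binds collagen IV, was at 572 TPM with the NR1D1 vector and 109 TPM with the empty vector in TPC-1. TINAGL1, a basement membrane glycoprotein gene, was at 80.3 TPM with the NR1D1 vector and 7.65 TPM with the empty vector in FTC-133, the line in which COL4A1 differed most, and had a log2 ratio of 1.91 in 8505C. FBLN1, for fibulin-1, was at 74.7 TPM after NR1D1 siRNA and 19.0 TPM after control siRNA in 8505C. Of the genes for receptors of laminins and collagens, 8 of 9 had a log2 ratio above 0 in 8505C, beside 52.9% of all genes. In CAL-62 7 of 9 did, beside 32.6%, and in TPC-1 5 of 8, beside 46.8%. The 9 genes did not share a side in FTC-133, where 3 were above 0 and 6 below, beside 54.8% of all genes above 0. There ITGB1, the beta subunit of most matrix integrins, was at 289 TPM with the NR1D1 vector and 837 TPM with the empty vector. ITGA6, its laminin-binding partner, was at 22.8 TPM and 48.5 TPM in the same order. ITGB1 was also lower after siRNA, at log2 ratios of -0.859 in 8505C and -0.245 in CAL-62. The latter was 0.033 relative to the median gene, and the ITGB1 log2 ratio in TPC-1 was 0.078. ITGB4, the hemidesmosome subunit that pairs with ITGA6, was at 54.0 TPM after NR1D1 siRNA and 13.3 TPM after control siRNA in CAL-62.

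**Figure D5:**
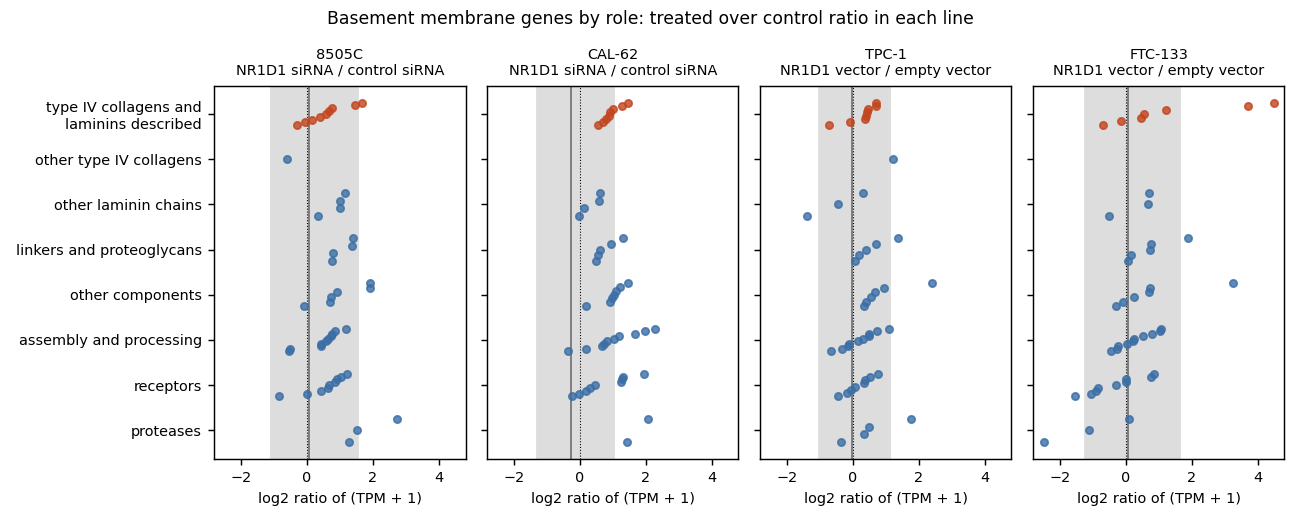
Log2 ratio of (TPM + 1) in each line for the 9 members (top row) and the 48 other basement membrane genes by role, among genes with a mean of at least 1 TPM in that line, with the grey band and line as the central 90% and the median of all such genes. Of the list genes, 31 of 37 in 8505C, 36 of 37 in CAL-62, 27 of 37 in TPC-1 and 20 of 36 in FTC-133 lie right of the median gene.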

How the data were processed

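The 4 tables were deposited by the authors, 1 per cell line, each with a column per library. Per the submitters' processing notes, the tools were FastQC, MultiQC, Trimmomatic 0.38 for trimming and featureCounts 2.0.0 for counting, with GRCh38 as the build. Aligner, annotation release and strand setting are not stated there. The 8505C and CAL-62 values deposited by the authors are TPM and sum to 1000000. The deposited TPC-1 and FTC-133 values, also named TPM by the authors, sum to between 253330.3 and 261469.4, and value times GENCODE 29 exon length matches FPKM, so they were read as FPKM. All columns were rescaled to 1000000. Levels of different lines come from tables normalized separately and were not tested against each other.

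Gene IDs were paired with symbols for 58472 of 58884 IDs. Reads per gene were estimated from each value times the GENCODE 29 exon length, with the most frequent such product of a column taken as 1 read. Whole numbers, to a tolerance of 0.02, resulted for 70.7% to 74.6% of values above 0, depending on the library, too few for a count model, so they serve only for exact binomial intervals of folds. limma 3.58.1 in R 4.3.3 was fitted to 17595 genes that averaged at least 1 TPM over the 8 libraries, as log2(TPM + 1), with cell line as a term and separate siRNA and vector effects, after a check on simulated data. The pairing comes from the cell line. Its p-values rest on how far the treated over control difference varied between the lines of an approach, with 2 lines per approach. That spread was pooled over the siRNA and vector lines and moderated over all genes. The fit was used for the 48 other genes, never for the members. Genes outside the members were named where they were 2-fold apart in a line with a mean of at least 5 TPM, at most 6 per line and direction, or by a fixed list; some genes that met the rule are not reported here. The members and lists were chosen with earlier results of these data known. Some genes were named in a further line than the one that met the rule, or beyond the 6, and were chosen after their values were seen. The planned identity between collagen chain proteins was not computed, since no protein sequences were used here. Alternatives were another pseudocount, other filters, other scalings, no line term and each line left out.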

Additional observations from a re-analysis of the deposited data

Results flagged for a closer look

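Within an approach, 3 members differed in opposite directions in the lines that received it, with counting intervals of the fold on either side of 1 in each. These differences rest on 1 library per group and were not tested. With many reads, the interval of even a small difference leaves out 1, as for LAMC1 in TPC-1 at 0.938. The share of all genes that met the same rule was not computed, so nothing is read from the count of 3.

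COL4A5 had a fold of 0.809 after NR1D1 siRNA in 8505C and 1.98 in CAL-62, so that the log2 ratio in 8505C minus that in CAL-62 was -1.0. Its level after control siRNA was 99.0 TPM in 8505C and 1.80 TPM in CAL-62. LAMB1 had a fold of 1.62 with the NR1D1 vector in TPC-1 and 0.902 in FTC-133, a difference of 0.83 on the log2 scale for TPC-1 minus FTC-133. LAMC1 had a fold of 0.938 in TPC-1 and 1.39 in FTC-133, a difference of -0.57 for TPC-1 minus FTC-133. No group had the 4 samples needed to look for a sample far from the others of its group.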

How the results depend on the processing

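The count of members at least 2-fold higher in CAL-62 was 3, and it was 6 with ratios centred on the median gene and 7 with mitochondrial genes removed, while the share of all genes there was 5.3%, 8.75% and 12.3% in the same order. The counts in the other lines kept within 1.5 times of the main ones, though LAMA3 in FTC-133 was at 0.84 with values as deposited. Over 36 log2 ratios of members, 1 changed sign, that of COL4A6 in FTC-133 on a single read. Passing genes over all genes numbered 0 for siRNA and 0 for the vector in limma, and 77 and 7 at a mean of at least 5 TPM, none of them from the list of 48 genes. Leaving out each line in turn gave 0 to 0 for both comparisons. Without the replicate block of cell line the counts were 0 and 0. Genes at an unadjusted p under 0.05 ran from 160 without that block to 2904 without mitochondrial genes for siRNA, against 2114, and were 1113 without 8505C and 1192 without CAL-62. Those for the vector ran from 100 without the block to 1358 without TPC-1, against 784. Of 40 list genes with siRNA, 15 had an unadjusted p under 0.05, beside 2114 of 17595 genes, and 2 did without the block, beside 160. Without mitochondrial genes 23 of 42 list genes did, beside 2904 of 19974 genes. All of these list genes were higher. When a line is left out, the remaining pair is assumed to vary like the lines of the other approach. Depth limits COL4A6 outside 8505C and COL4A5 in FTC-133.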
